A study of Mus musculus with 9 samples.

Results

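Oxidative phosphorylation (OXPHOS) subunit genes were followed in liver macrophages after partial hepatectomy (PHx), the surgical removal of most of the liver, after which the remnant regrows. The members were the 13 protein-coding genes of the mitochondrial genome and the nuclear genes whose symbols begin with the subunit prefixes of complexes I, III, IV and V (Nduf, Uqcr, Cox4 to Cox8 and Atp5). Of 116 gene IDs that matched a prefix or the mitochondrial list, 8 assembly factors (Ndufaf) and 9 entries with a symbol ending in -ps or -rs were left out, which gave 99 members of 56691 gene IDs. They comprised 13 mitochondrial and 86 nuclear IDs under 98 distinct symbols, since Atp5o is listed under a pair of IDs. By complex, the mitochondrial and nuclear members numbered 7 and 39 for complex I, 1 and 8 for complex III, 3 and 21 for complex IV, and 2 and 18 for complex V. Ndufa4 and Ndufa4l2, which carry a complex I prefix, were placed in complex IV, where the NDUFA4 protein is found.

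The cells were F4/80+CD11b+ cells sorted from the livers of young male C57BL/6 mice at 0 h, 24 h and 48 h after PHx, with 3 libraries at each time. F4/80 and CD11b are surface proteins of macrophages, encoded by Adgre1 and Itgam. No genotype or drug treatment differed between the times, and the 0 h cells, from livers at the start of the time course, were the baseline. Neither the labels nor the methods state that the libraries of 1 time are from different animals, and the p-values therefore rest on the spread among the libraries, which may be technical.

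OXPHOS passes electrons from NADH and succinate through complexes I to IV to oxygen and uses the resulting proton gradient to make ATP in complex V, the ATP synthase. Complexes I, III, IV and V are mosaics: a few hydrophobic core subunits are encoded by mitochondrial DNA, which is transcribed inside the organelle as long precursors that are then cut into separate RNAs, and all other subunits are encoded by nuclear genes, translated in the cytosol and imported. Macrophages change their use of OXPHOS with their state, with strong respiration in tissue-resident and repair-type cells and more glycolysis in inflammatory ones.

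Because 7 of the 13 mitochondrial genes have a near-identical nuclear copy on chromosome 1 that also received counts, their sequences are compared first. The copies of mt-Atp6, mt-Co2, mt-Co3, mt-Nd4 and mt-Nd4l were identical to the member over the aligned stretch, so no base there separates them. For mt-Nd3 and mt-Co1 the base that separates member and copy is shown. The capital letters mark the only position at which the member and its copy differ along the aligned stretch (345 bases for mt-Nd3 and 483 bases for mt-Co1), counted from the first base of the member. The substitutions are T3C for mt-Nd3 against Gm28438 and A1066T for mt-Co1 against Gm29216. Within the aligned stretch, a read that does not cover such a base could come from either gene. For mt-Co1 that stretch is 483 of its 1545 bases, and reads from the rest lie outside the match to Gm29216.
mt-Nd3: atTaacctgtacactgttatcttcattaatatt
Gm28438: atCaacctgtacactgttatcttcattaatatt
mt-Co1: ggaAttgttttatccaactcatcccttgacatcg
Gm29216: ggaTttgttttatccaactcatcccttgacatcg

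The copy of mt-Atp6, Gm10925, was identical to it over all 678 aligned bases. The first 60 of them, shared by both, are shown because the counts of mt-Atp6 set 1 library apart from the others (described with the mitochondrial values).
mt-Atp6 and Gm10925: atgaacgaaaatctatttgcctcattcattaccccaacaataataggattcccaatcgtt

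The nuclear members are spread over many chromosomes, and their promoters are shown because many nuclear members were called lower at 48 h. Each printed stretch runs from 250 bases before to 50 bases after the start of the gene, from RefSeq on GRCm38.p6, and is read on the strand of the gene (minus in all 4). Capitals mark matches to 3 motifs, each searched on both strands: GCGCANGCG, the core of the site of NRF1, CCGGAAG, the core of the site of ETS factors such as GABPA, and AAGATGGCG, the core of the site of YY1. NRF1, GABPA and YY1 are textbook regulators of nuclear mitochondrial genes. For each motif the member that fell at 48 h with the smallest p and held the motif was chosen (Ndufb6 for the ETS core, Ndufc1 for the YY1 core and Atp5l for the NRF1 core, with ETS cores beside it), and Ndufs8 is shown beside them as the complex I core subunit with the smallest difference at 48 h among those whose promoter held any of the 3 motifs. The promoters lie at chr4:40279372-40279671 for Ndufb6, chr3:51408906-51409205 for Ndufc1, chr9:44920693-44920992 for Atp5l and chr19:3912725-3913024 for Ndufs8.
Ndufb6: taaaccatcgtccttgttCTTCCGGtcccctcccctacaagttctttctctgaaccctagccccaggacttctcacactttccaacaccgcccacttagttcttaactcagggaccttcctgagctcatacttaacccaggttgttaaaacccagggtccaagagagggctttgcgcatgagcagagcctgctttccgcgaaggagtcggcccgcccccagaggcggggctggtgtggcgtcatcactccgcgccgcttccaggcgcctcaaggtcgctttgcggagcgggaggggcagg
Ndufc1: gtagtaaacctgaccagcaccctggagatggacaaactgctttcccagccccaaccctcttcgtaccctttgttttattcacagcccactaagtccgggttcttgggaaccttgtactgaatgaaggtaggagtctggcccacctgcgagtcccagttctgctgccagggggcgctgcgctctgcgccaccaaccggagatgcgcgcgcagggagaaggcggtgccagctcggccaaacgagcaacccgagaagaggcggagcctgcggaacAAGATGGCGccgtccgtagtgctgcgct
Atp5l: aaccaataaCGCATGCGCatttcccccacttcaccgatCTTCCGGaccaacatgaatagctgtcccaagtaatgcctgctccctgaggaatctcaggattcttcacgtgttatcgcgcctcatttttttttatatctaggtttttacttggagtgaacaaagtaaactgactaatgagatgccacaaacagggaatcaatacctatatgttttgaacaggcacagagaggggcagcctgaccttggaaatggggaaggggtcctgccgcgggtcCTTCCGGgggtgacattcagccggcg
Ndufs8: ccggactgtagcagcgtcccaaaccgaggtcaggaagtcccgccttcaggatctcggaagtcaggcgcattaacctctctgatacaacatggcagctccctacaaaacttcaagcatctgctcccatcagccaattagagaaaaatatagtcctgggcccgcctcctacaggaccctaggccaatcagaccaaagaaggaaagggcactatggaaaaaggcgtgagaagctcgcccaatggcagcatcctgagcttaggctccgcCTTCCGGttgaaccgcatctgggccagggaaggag

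The libraries held 53297943 to 67951168 counts, and the 48 h libraries stood apart from the rest in several ways. Between 24179 and 26767 genes had a count in the 0 h libraries, 23240 to 23452 in the 24 h libraries and 20549 to 22986 in the 48 h libraries. Replicates differed by a biological coefficient of variation of 0.417 (0 h), 0.437 (24 h) and 0.819 (48 h). Adgre1 had 172, 130 and 128 CPM (counts scaled to a common library size with edgeR's TMM factors) at 0 h, 129, 125 and 157 at 24 h, and 221, 63.6 and 107 at 48 h, and did not pass the test between 48 h and 0 h (adjusted p = 0.857). Itgam was lower at 48 h than at 0 h, with a log2 difference of -1.62 (adjusted p = 0.00613). Of 6 macrophage markers 1 was higher and 3 were lower at 48 h than at 0 h. Their median log2 difference between these times was -0.92. Their sums, which the most abundant markers dominate and of which Adgre1 is a small part, came to 63591 to 81278 CPM at 0 h, 33314 to 80130 CPM at 24 h and 10163 to 23930 CPM at 48 h. Kupffer cell markers went the other way, with 4 of 8 higher and 0 lower. They summed to 603 to 4351 CPM at 48 h, 1481 to 1842 CPM at 24 h and 255 to 943 CPM at 0 h, so the 24 h libraries also lay above those of 0 h. Between 24 h and 0 h 0 of the 8 passed the test, with 5 higher at an unadjusted p under 0.05 (edgeR). Between 48 h and 24 h 0 were higher and 1 was lower. All 12 liver endothelial markers, 5 of 5 erythroid, 7 of 8 B cell and 5 of 6 T cell markers were higher at 48 h than at 0 h, and no erythroid or endothelial marker was at 0 in any library. The endothelial markers summed to 5204 to 6194 CPM at 48 h and to 220 to 242 CPM at 0 h. All 6 monocyte markers were lower, with sums of 1149 to 1445 CPM at 48 h and 7637 to 37490 CPM at 0 h, and of 4 platelet markers 2 were lower (56.8 to 131 CPM at 48 h, 187 to 658 CPM at 0 h). Of 8 neutrophil markers 3 were higher and 2 lower (sums of 1586 to 2812 CPM at 48 h, 4984 to 12658 CPM at 0 h), and of 5 NK cell markers 3 were higher (30.9 to 67.0 CPM at 48 h, 0.820 to 4.70 CPM at 0 h). Hepatocyte markers, with 1 of 8 higher at 48 h, summed to 1061 to 2184 CPM at 48 h and 1322 to 1914 CPM at 0 h. Stellate cell markers, with 1 of 6 higher and 2 lower at 48 h, summed to 64.8 to 199 CPM at 48 h and 166 to 278 CPM at 0 h. Of 4 RNAs that are kept in the nucleus, 1 fell at 48 h (Neat1, log2 difference -1.19, adjusted p = 0.0421), a call lost without any library but 24 h replicates 2 and 3. Their summed level was 11377, 18290 and 17781 CPM at 0 h, 279, 21147 and 7997 CPM at 24 h, and 9312, 5627 and 465 CPM at 48 h, so 24 h replicate 1 and 48 h replicate 3 stood far below the other libraries. Several of these levels differed between 48 h and 0 h, though Adgre1 and the Kupffer cell, hepatocyte and stellate cell marker sums overlapped between these times. The part of these levels in the results at 48 h was not tested. In bulk RNA of this kind, fewer cells of a type and less RNA per cell cannot be told apart.

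Of the 99 members, 94 passed the filter on low counts and were tested, 13 mitochondrial and 81 nuclear. The 5 others were Ndufa11b, Cox7b2, Cox8b, Cox8c and the additional Atp5o ID, and 2 of them were at 0 in every library. Among the tested nuclear members, 78 are annotated as protein-coding and the rest (Ndufb4c, Ndufs6b and Cox6c2) as processed pseudogenes, whose counts could include reads of their parent genes.

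The OXPHOS genes of the mitochondrial and of the nuclear genome moved in opposite directions at 48 h. The 13 mitochondrial genes took 2.44%, 1.99% and 3.11% of all counts in the 0 h libraries, 1.69%, 2.09% and 2.83% in the 24 h libraries, and 4.90%, 13.2% and 9.92% in the 48 h libraries. The nuclear members took 1.85%, 1.89% and 2.07% at 0 h, 1.89%, 1.95% and 1.91% at 24 h, and 1.99%, 1.28% and 1.48% at 48 h. Every 48 h library lay above all earlier libraries for the mitochondrial share, while for the nuclear share 48 h replicate 1 lay within the 0 h range and the other two lay below all earlier libraries.

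The ratio of mitochondrial to nuclear OXPHOS counts, which does not depend on how libraries are scaled to each other, was 1.31, 1.05 and 1.5 at 0 h, 0.893, 1.07 and 1.48 at 24 h, and 2.46, 10.3 and 6.71 at 48 h. Its mean log2 value was higher by 2.12 at 48 h than at 0 h (4.35-fold, pooled SD 0.77) and higher by 2.30 than at 24 h (4.92-fold, pooled SD 0.80), with no overlap in either case, and differed by -0.18 between 24 h and 0 h. The ratio was above every earlier library in each 48 h library (mean 6.49 ± 3.93, SD, n = 3) and came closest to the earlier libraries in replicate 1. By complex, the ratio in 48 h replicates 1, 2 and 3 was 1.72, 7.51 and 4.75 for complex I, 2.91, 13.6 and 9.16 for complex III, and 4.43, 15.2 and 8.28 for complex IV, against 0 h values of 0.610 to 0.797, 0.821 to 1.10 and 1.8 to 2.7. For complex V it was 0.766, 7.41 and 6.33 at 48 h and 0.875 to 1.29 at 0 h, so 48 h replicate 1 lay below the 0 h libraries there.

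**Figure D1:**
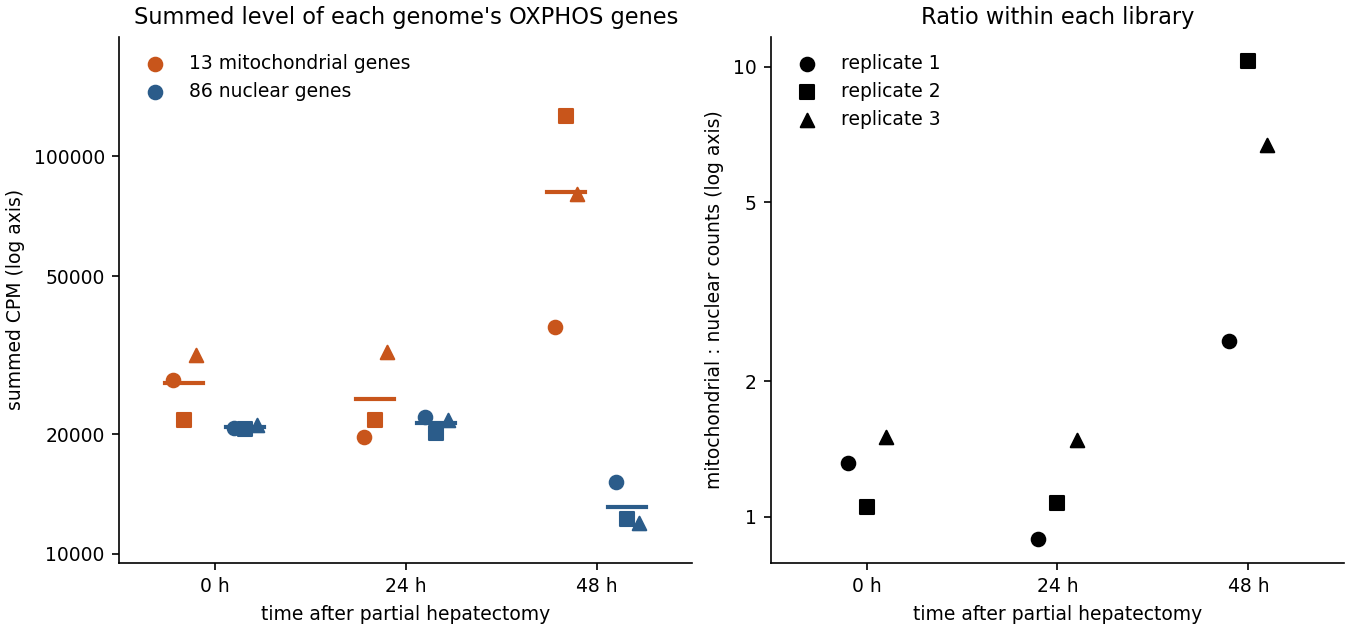
Summed levels of the 13 mitochondrial and the nuclear OXPHOS members, and their ratio, in each of the 9 libraries, by time after PHx (h). On the left, points are libraries on a log axis of summed CPM (marker shape gives the replicate) and short lines are the mean of each time, and on the right each point is the ratio in 1 library, also on a log axis. The ratio lay between 0.893 and 1.5 in the 6 libraries of 0 h and 24 h and between 2.46 and 10.3 in the 3 libraries of 48 h.

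On the TMM scale, the mitochondrial members summed to 26882 ± 4989 CPM at 0 h, 24525 ± 6701 CPM at 24 h and 81198 ± 44430 CPM at 48 h (SD, n = 3 each). The nuclear members summed to 20841 ± 207, 21314 ± 978 and 13114 ± 1763 CPM at the same times. The nuclear sum was thus held within a narrow range in the 6 earlier libraries (20207 to 22060 CPM) and lay between 11969 and 15144 CPM at 48 h. In 48 h replicates 1, 2 and 3, 61, 66 and 71 of the 81 tested nuclear members were below the lowest 0 h library, and 10, 13 and 13 of the 13 mitochondrial members were above the highest. In 24 h replicates 1, 2 and 3, the same counts were 23, 43 and 14 for the nuclear and 0, 0 and 6 for the mitochondrial members. No member was called at 24 h, and the share of all genes on this measure was not computed.

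Summed erythroid markers reached 39138, 145457 and 94331 CPM in 48 h replicates 1, 2 and 3, the same order as the mitochondrial sums in those libraries (37213, 126060 and 80322 CPM). In 24 h replicate 3 the erythroid markers summed to 49208 CPM, more than in 48 h replicate 1. The ratio of mitochondrial to nuclear OXPHOS counts in that 24 h library was 1.48, within the 0 h range. Its mitochondrial sum was 32177 CPM, above that of every other 24 h or 0 h library (at most 31634 CPM). In it 6 mitochondrial members lay above the highest 0 h library, against 0 in 24 h replicates 1 and 2. The part of erythroid RNA in the mitochondrial levels was not tested.

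Between 24 h and 0 h no OXPHOS member passed the test in either direction (0 of 13 mitochondrial and 0 of 81 nuclear, edgeR). The count was also 0 with DESeq2 and with limma-voom, and no member reached an unadjusted p of 0.05. Over all 20204 genes tested, 0.0495% were called higher and 0.0297% lower in this comparison. The median log2 difference was -0.14 for the mitochondrial and -0.03 for the nuclear members. Of the nuclear members, 8 of 81 had all 24 h libraries below all 0 h libraries and 2 had them above, where 8.92% and 8.37% of all genes did.

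Between 48 h and 0 h, 11 of the 13 mitochondrial genes rose (84.6%), where 9.86% of all genes tested were called higher. The log2 differences of all 13 ran between 1.26 and 2.29 with a median of 1.71, and the median over all genes was -0.04. None was called lower by edgeR, DESeq2 or limma-voom, and no negative difference reached an unadjusted p of 0.05. For 10 of the 13, all 48 h libraries lay above all 0 h libraries, which was the case for 16.5% of all genes. Of the 11, 6 kept their call whenever 1 library was left out (mt-Nd1, mt-Nd2, mt-Nd4, mt-Nd4l, mt-Nd5 and mt-Cytb). The count called was 6 when 0 h replicate 1 or 2 was left out, 7 when 0 h replicate 3 or 48 h replicate 2 was, and 13 when 48 h replicate 1 was.

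The 7 complex I genes of mitochondrial DNA encode the proton-pumping membrane arm of NADH dehydrogenase, and all 7 rose. mt-Nd2 (ENSMUSG00000064345) had 842, 732 and 921 CPM at 0 h, 603, 765 and 845 CPM at 24 h, and 1675, 6439 and 4065 CPM at 48 h, a log2 difference of 2.29 ± 0.41 (SE) between 48 h and 0 h (adjusted p = 0.00303). mt-Nd4 had 1255, 1011 and 1389 CPM at 0 h, 924, 1137 and 1342 CPM at 24 h, and 2734, 8856 and 5138 CPM at 48 h (2.19 ± 0.38, adjusted p = 0.00259). Both were higher in every 48 h library than in any earlier one. The differences of mt-Nd1 (1.92), mt-Nd4l (2.03) and mt-Nd5 (1.96) were close to these, with adjusted p of 0.00707, 0.00492 and 0.00643. mt-Nd3 (1.37, adjusted p = 0.0373) and mt-Nd6 (1.71, adjusted p = 0.0296) had the smallest differences of the 7 and the largest SE relative to them. mt-Nd6, the only protein gene on the opposite strand of mitochondrial DNA, had 269, 1519 and 1006 CPM at 48 h and 272, 275 and 309 CPM at 0 h, so 48 h replicate 1 was at the 0 h level. The calls of mt-Nd3 and mt-Nd6 were lost without any 0 h library, 48 h replicate 2 or 48 h replicate 3.

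mt-Cytb encodes cytochrome b, the mitochondrial subunit of complex III. It had 2805, 2173 and 2941 CPM at 0 h, 2254, 2049 and 2903 CPM at 24 h, and 5527, 20011 and 12736 CPM at 48 h, a log2 difference of 2.27 ± 0.41 between 48 h and 0 h (adjusted p = 0.00313). No 48 h library overlapped the earlier ones.

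mt-Co1, mt-Co2 and mt-Co3 encode the catalytic core of complex IV, cytochrome c oxidase. mt-Co1 (ENSMUSG00000064351) had 6625, 5951 and 7272 CPM at 0 h, 4119, 4857 and 6175 CPM at 24 h, and 9933, 25798 and 14329 CPM at 48 h (1.33 ± 0.34, adjusted p = 0.0201). mt-Co2 differed by 1.42 (adjusted p = 0.0211). mt-Co3 had 4713, 3095 and 5803 CPM at 0 h, 2898, 3336 and 5929 CPM at 24 h, and 6856, 16279 and 9527 CPM at 48 h, and its difference of 1.26 ± 0.39 (adjusted p = 0.0480) was the one closest to the threshold. The call of mt-Co1 was lost without any 0 h library, that of mt-Co2 without 0 h replicate 1, 0 h replicate 2 or 48 h replicate 2, and that of mt-Co3 without any library but 24 h replicate 3 and 48 h replicate 1. All 3 genes were above the earlier libraries in each 48 h library, by a smaller margin in replicate 1.

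mt-Atp6 and mt-Atp8 encode subunits of the membrane part of the ATP synthase, and neither passed the test. mt-Atp6 (ENSMUSG00000064357) had 5013, 3980 and 6435 CPM at 0 h, 4196, 4457 and 7071 CPM at 24 h, and 2083, 20001 and 15442 CPM at 48 h (1.28 ± 0.61, adjusted p = 0.183). mt-Atp8 had 1291, 828 and 1405 CPM at 0 h, 1049, 1050 and 2066 CPM at 24 h, and 784, 5010 and 4383 CPM at 48 h (1.53 ± 0.57, adjusted p = 0.0892). In both genes 48 h replicate 1 was below every earlier library while the other two were far above them. Without 48 h replicate 1 the log2 differences were 1.78 for mt-Atp6 (adjusted p = 0.00267) and 2.00 for mt-Atp8 (adjusted p = 0.00317), and 13 of 13 mitochondrial genes were called higher.

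48 h replicate 1 also differed from the others in the balance among mitochondrial genes. Relative to the 0 h mean, its levels were 0.405-fold for mt-Atp6, 0.667-fold for mt-Atp8 and 0.944-fold for mt-Nd6, and between 1.21-fold (mt-Nd3) and 2.24-fold (mt-Nd4) for the 10 others. In 48 h replicate 2 all 13 genes were between 3.59-fold and 7.74-fold, and in replicate 3 between 2.10-fold and 4.89-fold. The ratio of mt-Atp6 to mt-Co3, its neighbour in the mitochondrial genome, was 0.304 in 48 h replicate 1 and 1.06 to 1.62 in the 8 other libraries. In the GENCODE M21 annotation mt-Atp8 and mt-Atp6 overlap by 43 bases, mt-Nd4l and mt-Nd4 by 7, and mt-Nd5 and mt-Nd6 by 14 on opposite strands, so reads in those stretches could be assigned to either gene or to none.

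**Figure D2:**
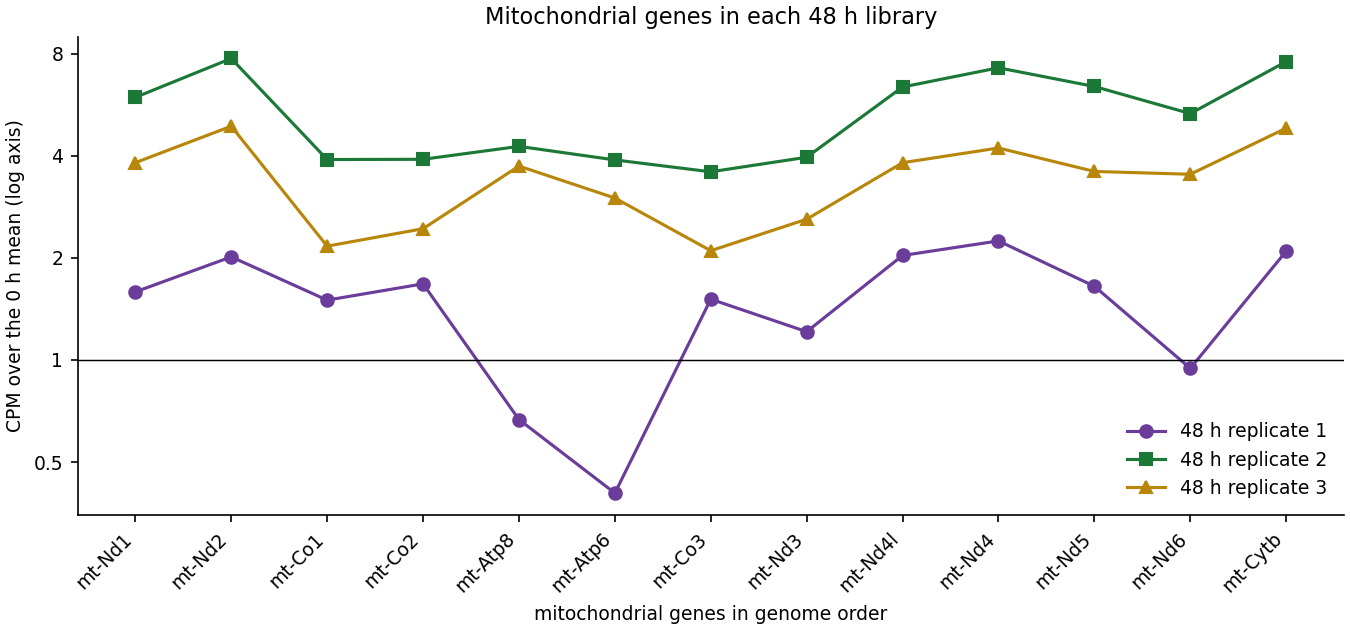
Level of each mitochondrial OXPHOS gene in each 48 h library relative to its mean over the 0 h libraries (log axis), with genes in their order along the mitochondrial genome. In 48 h replicate 1 mt-Atp6 stood at 0.405 and mt-Atp8 at 0.667, while every gene of replicates 2 and 3 was at 2.10 or more.

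The 7 near-identical copies on chromosome 1 belong to mt-Atp6, mt-Co1, mt-Co2, mt-Co3, mt-Nd3, mt-Nd4 and mt-Nd4l, and together held 16.3% to 36.1% of the counts of the mitochondrial members and copies in a library. Gm10925 held 48.7%, 46.6% and 37.8% of its summed counts with mt-Atp6 at 0 h, 40.7%, 27.9% and 25.2% at 24 h, and 73.0%, 48.5% and 38.5% at 48 h. The copy share of mt-Atp6 was highest in 48 h replicate 1, the library in which mt-Atp6 itself was lowest. With the copy added, mt-Atp6 had 9778, 7448 and 10355 CPM at 0 h, 7079, 6184 and 9458 CPM at 24 h, and 7709, 38846 and 25126 CPM at 48 h, so 48 h replicate 1 then lay within the 0 h range, at 0.839-fold of its mean. Its ratio to mt-Co3 with copies was 0.563 in 48 h replicate 1 and 1.15 to 1.35 in the others. With all copies added, the ratio of mitochondrial to nuclear counts was 1.57 to 2.04 at 0 h, 1.25 to 1.77 at 24 h and 3.84, 14.5 and 9.24 at 48 h, and 11 of 13 mitochondrial genes were higher at 48 h than at 0 h.

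**Figure D3:**
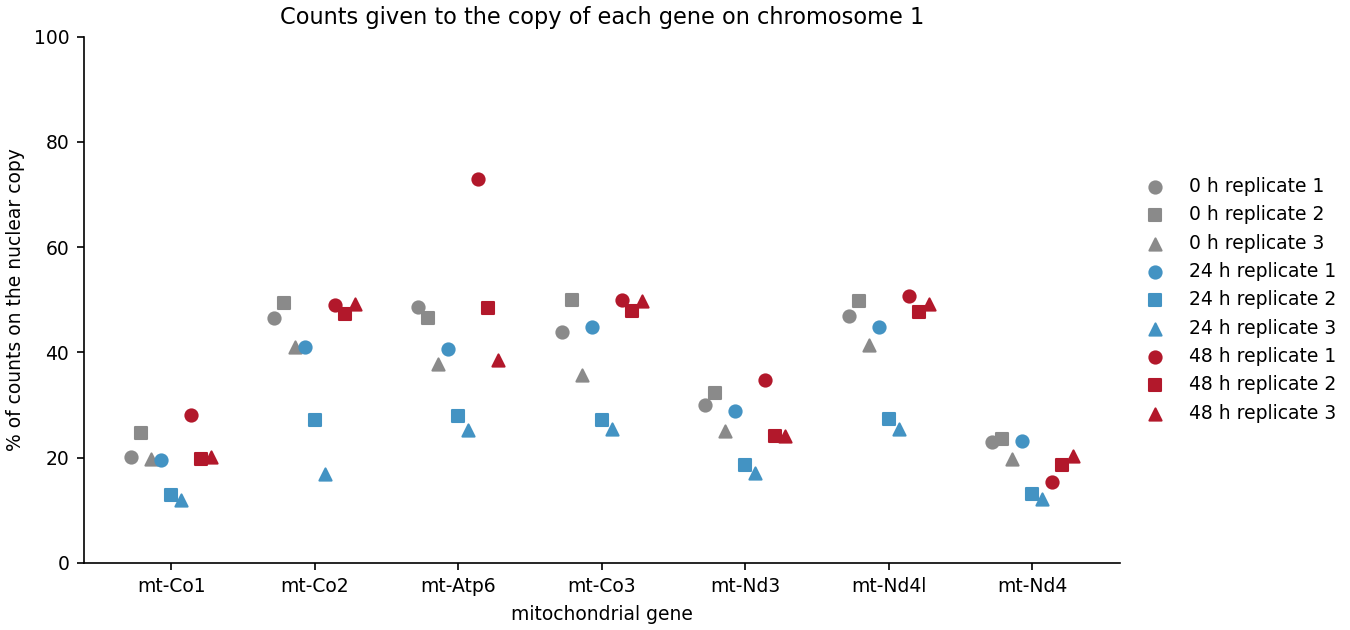
Share (percent) of the summed counts of each mitochondrial gene and its near-identical nuclear copy that was assigned to the copy, for each library and gene. The mt-Atp6 copy took between 25.2% and 48.7% in the 8 other libraries and 73.0% in 48 h replicate 1.

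Per kilobase of gene length, the levels of the mitochondrial genes differed widely before PHx. The highest at 0 h was mt-Atp6, with 7552 ± 1810 CPM per kilobase (SD, n = 3), and the lowest mt-Nd5, with 318 ± 24.6. Both ribosomal RNAs of the mitochondrial genome, which were not members, rose as well. mt-Rnr1 had 2991, 8228 and 5977 CPM at 48 h and 1072, 1655 and 2038 CPM at 0 h (log2 difference 1.85, adjusted p = 0.00622). mt-Rnr2 had 13340, 36442 and 27010 CPM at 48 h and 8387, 9499 and 12432 CPM at 0 h (1.34, adjusted p = 0.0223), a call lost without 0 h replicate 1, 0 h replicate 2 or 48 h replicate 2.

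The nuclear members moved the other way. Between 48 h and 0 h, 37 of the 81 tested nuclear members fell (45.7%), where 8.95% of all genes tested were called lower. None was called higher by edgeR, DESeq2 or limma-voom, with 1 at an unadjusted p under 0.05 in edgeR. Of the 81 log2 differences 75 were negative and 6 positive, with a median of -0.63. For 54 of the 81, all 48 h libraries lay below all 0 h libraries, against 19.7% of all genes. Members fell in each complex, 14 of 38 in complex I, 4 of 8 in complex III, 8 of 18 in complex IV and 11 of 17 in complex V. Of the 37, 20 kept their call whenever 1 library was left out. The count of 37 was 21 without 0 h replicate 1, 22 without 0 h replicate 2, 24 without 48 h replicate 2, 23 without 48 h replicate 3 and 44 without 48 h replicate 1. When libraries were scaled by their total counts alone, the median over all genes moved to 0.33, the nuclear median was -0.25 (-0.58 relative to it) and 10 members fell.

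**Figure D4:**
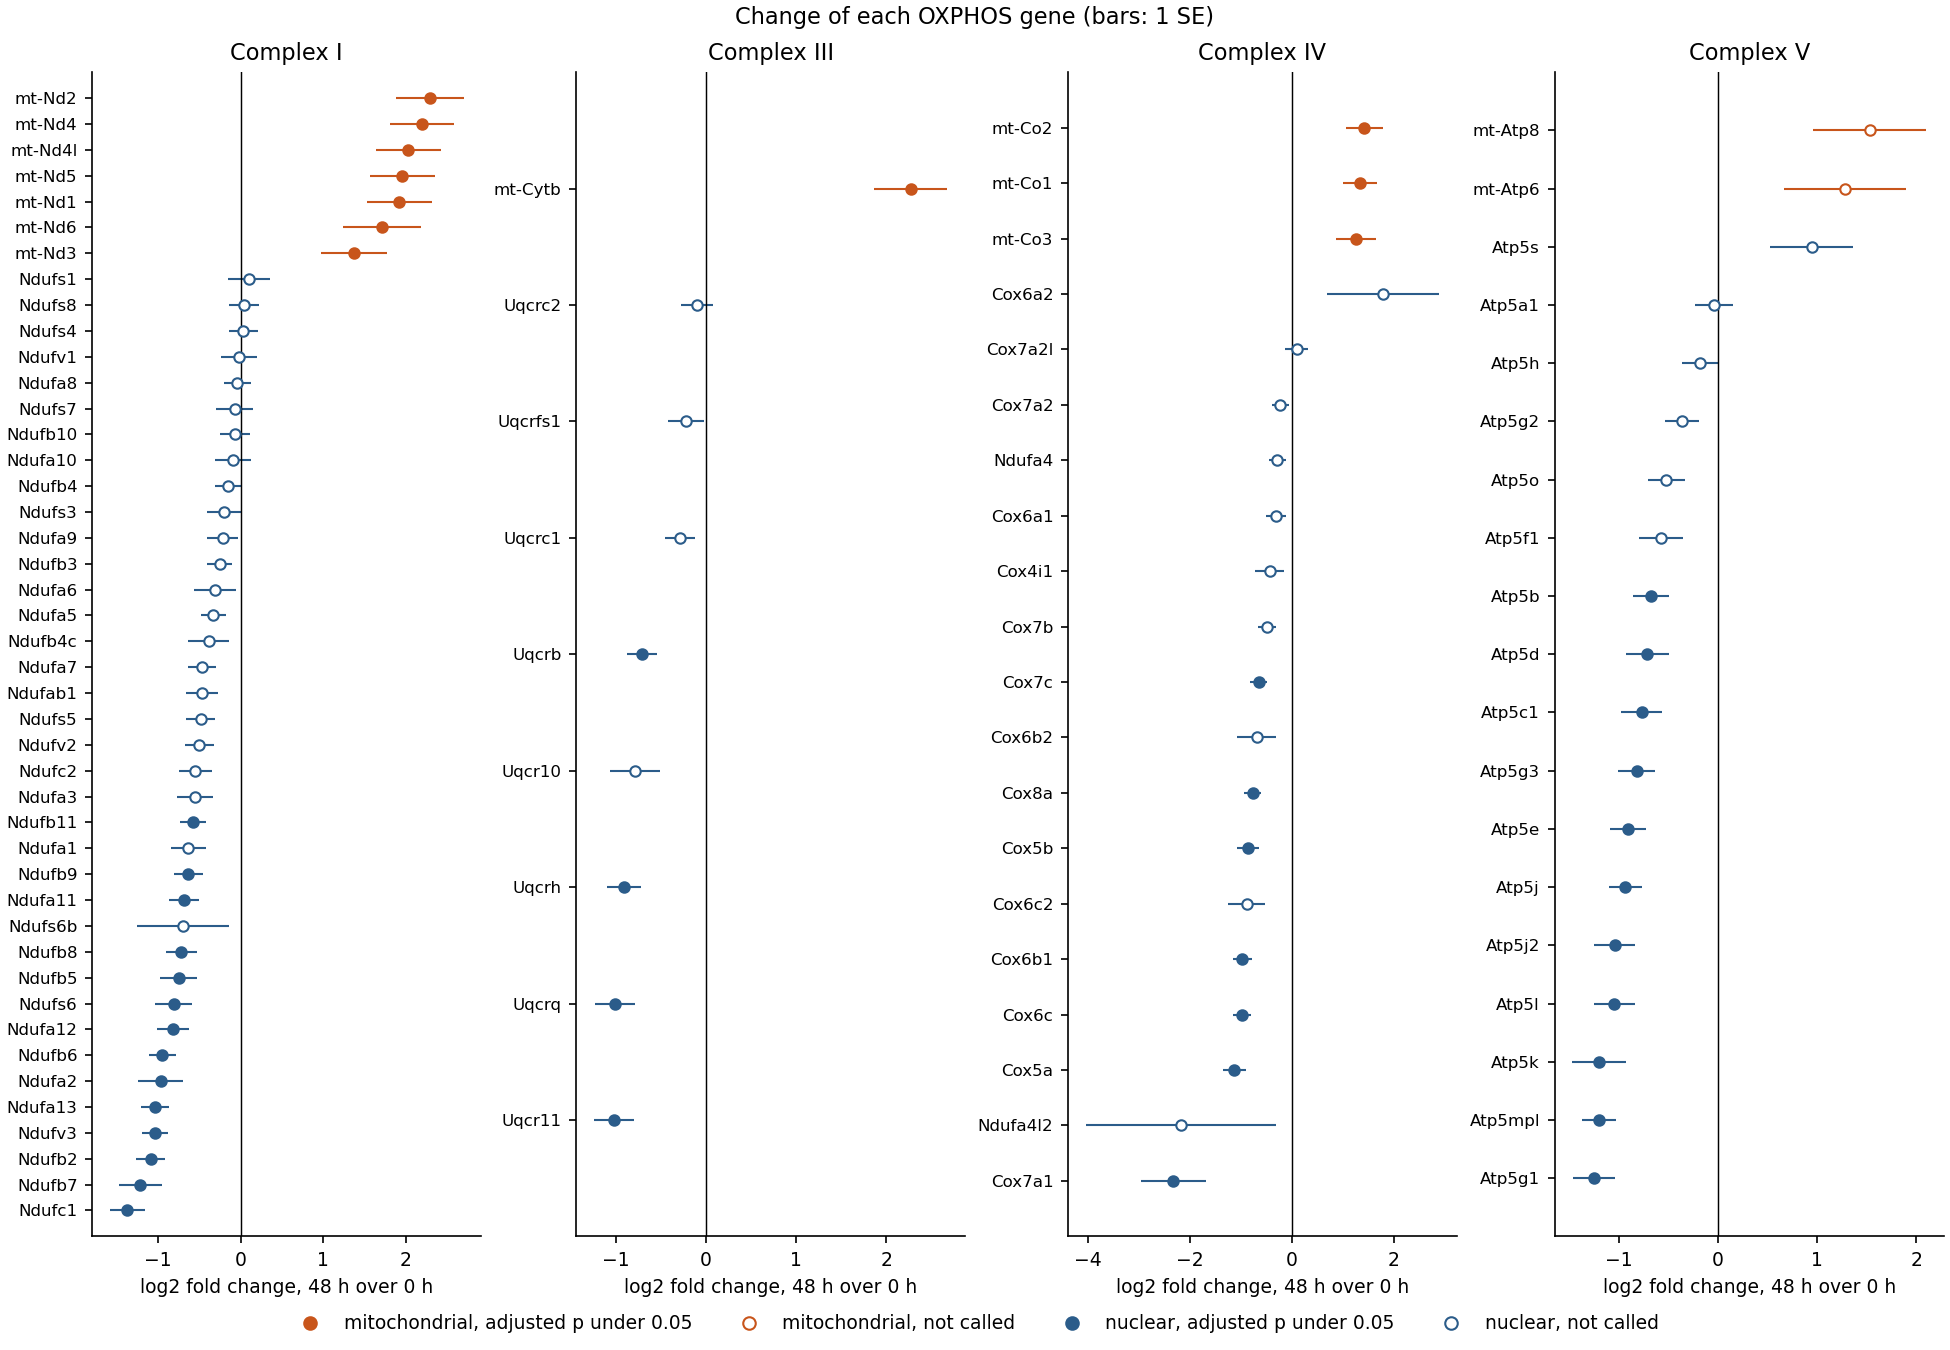
Log2 difference between 48 h and 0 h of tested OXPHOS members, with a panel for each complex, mitochondrial genes in orange and nuclear genes in blue, bars of 1 SE and filled points for an adjusted p under 0.05. The x axes differ between panels, and Cox4i2, at 0 in every 48 h library, is not drawn. The 13 mitochondrial genes lay between 1.26 and 2.29, and 75 of the 81 nuclear members had a negative difference.

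Among the nuclear subunits of complex I, Ndufc1 (ENSMUSG00000037152, chromosome 3), an accessory subunit of the membrane arm, and Ndufv3 had the smallest p. Ndufc1 had 338, 290 and 308 CPM at 0 h, 274, 330 and 372 CPM at 24 h, and 90.7, 137 and 135 CPM at 48 h, a log2 difference of -1.37 ± 0.21 between 48 h and 0 h with an adjusted p of 0.00127. Ndufv3, an accessory subunit next to the NADH-binding site, had 206, 210 and 223 CPM at 0 h, 211, 173 and 196 CPM at 24 h, and 102, 104 and 105 CPM at 48 h (-1.04 ± 0.16, adjusted p = 0.00110). In both genes the 48 h libraries lay far below all others, and those of Ndufv3 were nearly equal. Ndufb2, in the membrane arm, fell by 1.08 on the log2 scale (adjusted p = 0.00169). The 2 most abundant accessory subunits, Ndufb7 and Ndufa2, also fell. Ndufb7 had 413, 222 and 204 CPM at 48 h and 672, 664 and 610 CPM at 0 h (-1.21 ± 0.26, adjusted p = 0.00891), and Ndufa2 had 452, 208 and 235 CPM at 48 h and 603, 590 and 557 CPM at 0 h (-0.97 ± 0.27, adjusted p = 0.0319). In these last genes 48 h replicate 1 was the closest to the 0 h libraries, and the call of Ndufa2 was lost without any library but that one (adjusted p up to 0.132). The 9 other complex I members that fell (Ndufa11, Ndufa12, Ndufa13, Ndufb5, Ndufb6, Ndufb8, Ndufb9, Ndufb11 and Ndufs6), all accessory, had log2 differences between -1.03 for Ndufa13 and -0.57 for Ndufb11. Apart from Ndufa13 and Ndufb6, each of these 9 lost its call when at least 1 library was left out, and Ndufb5, Ndufb9 and Ndufs6 in 8 of 9 cases.

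The 7 nuclear core subunits of complex I, which carry the flavin and the iron-sulphur clusters of the electron path, did not pass the test. This grouping, and the members named in it, were chosen after their values were seen. Of the 7, 0 were called by edgeR or limma-voom and 1 by DESeq2, 2 had an unadjusted p under 0.05, and the log2 differences ran between -0.50 for Ndufv2 (adjusted p = 0.0794) and 0.11 for Ndufs1, with a median of -0.07. Of the accessory subunits, 14 of 29 protein-coding ones fell, with a median of -0.57. Ndufs8 had 190, 183 and 212 CPM at 0 h, 168, 180 and 175 CPM at 24 h, and 248, 186 and 169 CPM at 48 h (0.05 ± 0.18, adjusted p = 0.907). Its 48 h libraries spread around the 0 h values. The 15 accessory subunits that did not pass ran between -0.63 for Ndufa1 (adjusted p = 0.0622) and 0.03 for Ndufs4 (adjusted p = 0.929). Whether core and accessory subunits differ was not tested.

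In complex III, 4 of the 5 small accessory subunits fell and the 3 large core subunits did not pass the test. This grouping was not planned, and whether small and large subunits differ was not tested. Uqcr11 had 721, 647 and 592 CPM at 0 h, 665, 557 and 728 CPM at 24 h, and 418, 267 and 280 CPM at 48 h (-1.02 ± 0.22 between 48 h and 0 h, adjusted p = 0.00927). Uqcrh, the hinge protein between cytochromes c1 and c, had 205, 219 and 233 CPM at 0 h, 208, 186 and 215 CPM at 24 h, and 94.6, 141 and 115 CPM at 48 h (-0.91 ± 0.19, adjusted p = 0.00681). Uqcrq differed by -1.0 (adjusted p = 0.00962) and Uqcrb by -0.70 (adjusted p = 0.0141). The calls of Uqcr11 and Uqcrb were lost in 2 and 4 of the 9 cases in which 1 library was left out (adjusted p up to 0.0589 and 0.0879). Uqcr10, the other abundant small subunit, had 510, 245 and 241 CPM at 48 h and 594, 546 and 575 CPM at 0 h (-0.78 ± 0.28, adjusted p = 0.0789), with replicate 1 again nearest to 0 h. The core proteins Uqcrc1 and Uqcrc2 differed by -0.29 and -0.10, and the Rieske iron-sulphur protein Uqcrfs1 by -0.22, with adjusted p of 0.294, 0.779 and 0.525.

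Complex IV has subunits with alternative isoforms, and their values are given side by side. Of the single-gene subunits, Cox6c had 485, 418 and 460 CPM at 0 h, 443, 469 and 461 CPM at 24 h, and 203, 256 and 232 CPM at 48 h (-0.98 ± 0.17 between 48 h and 0 h, adjusted p = 0.00252), and Cox5a, chosen after its values were seen, differed by -1.13 ± 0.22 (adjusted p = 0.00551). The 48 h libraries of Cox6c did not overlap the earlier ones. Cox5b (-0.85, adjusted p = 0.0186) and Cox7c (-0.65, adjusted p = 0.0194), further small subunits without a second isoform here, fell too, with calls lost in 4 and 3 of the 9 cases in which 1 library was left out. Cox4i1, the general isoform of the largest nuclear subunit had 1105, 1330 and 904 CPM at 0 h, 1542, 1541 and 1150 CPM at 24 h, and 1163, 623 and 677 CPM at 48 h (-0.44 ± 0.28, adjusted p = 0.319). Its libraries overlapped between 48 h and 0 h.

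Cox4i2, the isoform known from lung and from low oxygen, was at 0 in all 3 libraries of 48 h, with 0.740, 0.984 and 0.882 CPM at 0 h and 0.590, 0.333 and 1.01 CPM at 24 h. Taking 3 counts over the 48 h libraries (0.0137 CPM) as the level that a count of 0 allows, it was at least 63.8-fold lower at 48 h than at 0 h and at least 47.0-fold lower than at 24 h, and it was called lower in both comparisons (adjusted p = 0.00232 and 0.00295). These limits cover counting error only. Cox4i2 passed the filter on low counts through its 0 h and 24 h libraries alone. Its calls are included in the counts of nuclear members that fell. The alternative filter that required a minimum count in every library left Cox4i2 out, so its calls could not be checked there. Cox7a1, the heart and muscle isoform, also fell, with 1.19, 0.125 and 0.760 CPM at 48 h and 4.32, 2.93 and 3.23 CPM at 0 h (-2.33 ± 0.64, adjusted p = 0.0284). That call was lost when any library but 48 h replicates 1 and 2 was left out (adjusted p up to 0.108). Both isoforms were rare in every library.

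The other isoform pairs had a general isoform at high and a tissue-restricted isoform at low level. Cox6b1 had 701, 707 and 706 CPM at 0 h, 704, 646 and 697 CPM at 24 h, and 443, 313 and 321 CPM at 48 h (-0.97 ± 0.19 between 48 h and 0 h, adjusted p = 0.00510), whereas the testis isoform Cox6b2 had 4.65, 10.2 and 13.4 CPM at 48 h and 18.6, 13.9 and 12.9 CPM at 0 h (-0.69 ± 0.38, adjusted p = 0.255). Cox8a had 287, 270 and 282 CPM at 48 h and 493, 430 and 505 CPM at 0 h (-0.77 ± 0.16, adjusted p = 0.00835), and Cox8b, Cox8c and Cox7b2 had too few counts to be tested. Cox6a1 had 1059, 732 and 868 CPM at 48 h and 1027, 1160 and 1103 CPM at 0 h (-0.31 ± 0.19, adjusted p = 0.319), and the muscle isoform Cox6a2 had 2.89, 1.95 and 6.90 CPM at 48 h and 2.28, 0.674 and 0.441 CPM at 0 h (1.79 ± 1.10, adjusted p = 0.309). Cox7a2 (-0.23), Cox7a2l (0.10), a factor in the joining of complexes III and IV, and Cox7b (-0.49) did not pass the test, with adjusted p of 0.387, 0.832 and 0.0742. Ndufa4 differed by -0.29 (adjusted p = 0.305), and Ndufa4l2, known to be induced in low oxygen, by -2.18 ± 1.87 (adjusted p = 0.483) on fewer than 1.6 CPM in each library.

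In complex V, 11 of 17 members were lower at 48 h than at 0 h. Atp5mpl (ENSMUSG00000021290, chromosome 12), a small proteolipid of the membrane part, had 181, 165 and 211 CPM at 0 h, 169, 173 and 188 CPM at 24 h, and 86.1, 83.8 and 72.5 CPM at 48 h (-1.20 ± 0.17 between 48 h and 0 h, adjusted p = 0.000723). The rotor ring of the enzyme is built from the c subunit, for which 3 genes encode the same mature protein. Atp5g1 had 464, 395 and 503 CPM at 0 h, 581, 415 and 546 CPM at 24 h, and 228, 181 and 165 CPM at 48 h (-1.25 ± 0.21, adjusted p = 0.00210). Atp5g3 had 202, 230 and 219 CPM at 48 h and 358, 357 and 433 CPM at 0 h (-0.82 ± 0.19, adjusted p = 0.0117), and the least abundant of the 3, Atp5g2, had 39.0, 45.9 and 46.5 CPM at 48 h and 50.6, 54.3 and 63.8 CPM at 0 h (-0.36 ± 0.17, adjusted p = 0.166).

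The catalytic head of the ATP synthase pairs alpha (Atp5a1) and beta (Atp5b) subunits in equal number. Atp5b had 346, 385 and 360 CPM at 48 h and 539, 577 and 625 CPM at 0 h (-0.67 ± 0.18, adjusted p = 0.0265), a call lost in 6 of the 9 cases in which 1 library was left out (adjusted p up to 0.0959). Atp5a1 had 542, 470 and 379 CPM at 48 h and 422, 479 and 532 CPM at 0 h (-0.04 ± 0.19, adjusted p = 0.919), with overlapping libraries. The ratio of Atp5a1 to Atp5b was 0.782, 0.829 and 0.851 at 0 h, 0.738, 0.983 and 0.806 at 24 h, and 1.57, 1.22 and 1.05 at 48 h, so each 48 h library lay above all earlier ones.

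The central stalk, which turns inside the head, is formed by the gamma, delta and epsilon subunits, and Atp5c1 fell by 0.77, Atp5d by 0.71 and Atp5e by 0.90 on the log2 scale (adjusted p = 0.0260, 0.0414 and 0.00595). The call of Atp5d was lost without any library but 48 h replicate 1 (adjusted p up to 0.165) and that of Atp5c1 in 5 of the 9 cases in which 1 library was left out (adjusted p up to 0.0992), while that of Atp5e was kept in all 9. Of the peripheral stalk, which holds the head in place, Atp5j fell (-0.93 ± 0.17, adjusted p = 0.00331), and Atp5f1 (-0.57 ± 0.22, adjusted p = 0.0975), Atp5h (-0.18 ± 0.18, adjusted p = 0.559) and Atp5o (-0.52 ± 0.19, adjusted p = 0.0781) did not pass. Of the small subunits of the membrane part, Atp5j2 (-1.04), Atp5k (-1.20) and Atp5l (-1.04) fell as Atp5mpl did, with adjusted p of 0.00549, 0.0111 and 0.00545, and the call of Atp5k was lost without 0 h replicate 1 or 48 h replicate 3. Atp5l, whose promoter is printed, had 593, 563 and 535 CPM at 0 h, 501, 589 and 576 CPM at 24 h, and 351, 240 and 230 CPM at 48 h. All of its 48 h libraries were below the earlier ones.

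Against 24 h the pattern was similar in size, but the 48 h libraries are shared with the comparison just described, so it is not separate evidence. Between 48 h and 24 h, 11 of 13 mitochondrial genes rose, where 10.2% of all genes were called higher, and the median log2 difference was 1.89 (0.05 over all genes). mt-Atp6 (1.25 ± 0.61, adjusted p = 0.186) and mt-Atp8 (1.29 ± 0.56, adjusted p = 0.141) were again the exceptions, and passed without 48 h replicate 1, when 13 of 13 were called. The count was 7 without 24 h replicate 1, and 7 of the 11 kept their call whenever 1 library was left out. For 9 of the 13, the 48 h libraries lay above all 24 h libraries, against 17.2% of all genes.

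Of the nuclear members, 36 of 81 fell between 48 h and 24 h, where 9.60% of all genes were called lower, and the median was -0.61. Of the 36, 17 kept their call whenever 1 library was left out. The count was 19 without 24 h replicate 3, and 8 when libraries were scaled by total counts alone, where the median over all genes moved to 0.47 and the nuclear median was -0.20. For 51 of the 81, all 48 h libraries lay below all 24 h libraries, against 18.4% of all genes. By complex, 12 of 38 fell in complex I, 5 of 8 in complex III, 8 of 18 in complex IV and 11 of 17 in complex V. The smallest p-values were those of Atp5g1 (-1.43 ± 0.21, adjusted p = 0.000950), Ndufc1 (-1.43 ± 0.21, adjusted p = 0.000975) and Atp5mpl (-1.13 ± 0.17, adjusted p = 0.00104). Uqcr10, with 707, 618 and 612 CPM at 24 h, had an adjusted p of 0.0363 in this comparison (-0.96 ± 0.28), a call lost without any library but 48 h replicate 1 (adjusted p up to 0.137).

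Atp5s, the coupling factor B of the ATP synthase, was the single nuclear member higher at 48 h than at 24 h. It had 3.20, 7.87 and 5.12 CPM at 48 h and 1.75, 2.37 and 2.04 CPM at 24 h (1.39 ± 0.42, adjusted p = 0.0421 by edgeR), a call that limma-voom did not make and that was lost on leaving out any library other than 0 h replicate 2 and 48 h replicate 1. Its level was 2.62, 1.95 and 3.84 CPM at 0 h, against which 48 h did not pass the threshold (0.94 ± 0.42, adjusted p = 0.151). It is among the least abundant members of complex V.

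Coding length, a property that the choice of members did not use, varied with the difference at 48 h. The median coding length of the 78 protein-coding members was 405 nucleotides. Of members up to that length 21 of 39 fell between 48 h and 0 h, and of longer ones 16 of 39. Across the 78 members the rank correlation of coding length with the log2 difference was 0.48 (Spearman), against 0.077 across 14957 genes, where genes are not independent of each other and share the same libraries. Among all 993 tested genes with a coding length of up to 405 nucleotides 21.5% were called lower, with a median of -0.22, against 8.66% and 0.04 among 13964 longer genes, and 15.1% of the shorter and 12.0% of the longer genes were called higher. The part of length in the members' values was not tested.

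**Figure D5:**
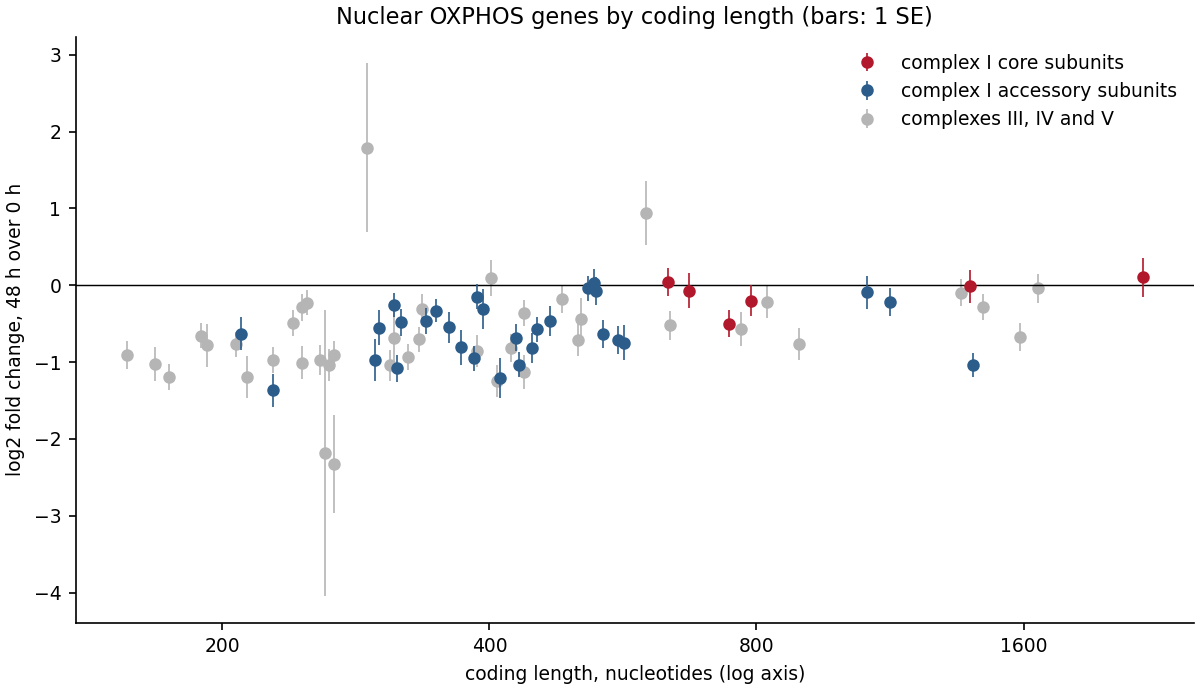
Log2 difference between 48 h and 0 h against coding length (nucleotides, log axis) for tested protein-coding nuclear OXPHOS members, with bars of 1 SE, complex I core subunits in red, complex I accessory subunits in blue and the other complexes in grey. Cox4i2 is not drawn. Members of up to 405 nucleotides fell in 21 of 39 cases and longer ones in 16 of 39.

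Of the 78 protein-coding nuclear members tested, 62 had a promoter in the RefSeq table. The NRF1 core GCGCANGCG stood in 17 of the 62 (27.4%), against 6.47% of the promoters of all 27025 genes, the ETS core CCGGAAG in 13 (21.0% against 9.12%) and the YY1 core AAGATGGCG in 6 (9.68% against 1.49%), with at least 1 of the 3 in 30 (48.4% against 15.3%). CCAAT stood in 41.9% against 37.9% and GGGCGG, the core of the SP factor site, in 38.7% against 35.9%. All were searched on both strands, and a promoter can hold more than 1 of them. No matches overlapped in the printed promoters. Of the 30 members lower at 48 h than at 0 h that had a promoter, 6 held the NRF1 core, 9 the ETS core and 3 the YY1 core. Of the 32 that were not called, 11, 4 and 3 did. Ndufs8, which did not pass the test, and Ndufb6, which fell, both hold the ETS core, marked in the printed sequences. A match describes these letters only, and the binding of the factors was not measured.

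Genes around the OXPHOS complexes were listed beside the members. Complex II, succinate dehydrogenase, is the only respiratory complex without mitochondrial genes, and 0 of its 4 genes passed the test between 48 h and 0 h by edgeR, DESeq2 or limma-voom, with 0 at an unadjusted p under 0.05 (log2 differences of 0.07 for Sdha, -0.18 for Sdhb, -0.29 for Sdhc and -0.33 for Sdhd, median -0.23). Of 16 cytochrome c and coenzyme Q genes, 1 fell and 1 rose, with a median of -0.13. Over all genes tested, 8.95% were called lower and 9.86% higher in this comparison. Cycs, which encodes cytochrome c, the electron carrier between complexes III and IV, had 586, 510 and 533 CPM at 0 h, 676, 617 and 636 CPM at 24 h, and 159, 202 and 184 CPM at 48 h (-1.58, adjusted p = 0.000153), so the 48 h libraries lay far below all others. Coq8a, needed for coenzyme Q synthesis, rose (1.56, adjusted p = 0.0182), a call lost without 0 h replicate 1 or 2.

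For assembly factors and regulators, the counts stand beside the 8.95% of all genes called lower and the 9.86% called higher between 48 h and 0 h. Of 16 complex I assembly genes 1 fell (Dmac1, -1.15, adjusted p = 0.00382, median of the list -0.13), and of 28 assembly genes of complexes III to V 3 fell (Uqcc2, Cox20 and Cox14, median of the list -0.36). Of 16 genes for transcription and replication of mitochondrial DNA, 1 rose (Mgme1, a mitochondrial exonuclease, 1.06, adjusted p = 0.0480) and 0 fell, and the packaging and transcription factor Tfam (0.08) and the polymerase Polrmt (0.03) did not pass (median of the list 0.08). None of 18 tested genes for mitochondrial RNA processing was called by edgeR or limma-voom, with 4 at an unadjusted p under 0.05 and 2 called by DESeq2 (median -0.03). Of 13 regulators of mitochondrial biogenesis, the deacetylase Sirt3 rose (0.95, adjusted p = 0.0326), and Nrf1 (-0.42), Gabpa (-0.44), Esrra (-0.45) and Ppargc1a (-0.40) did not pass (median of the list -0.28). Over these 13 regulators, 3 positive and 2 negative differences had an unadjusted p under 0.05 by edgeR. The calls of Cox14 and Mgme1 were lost without any library but 48 h replicate 1, and that of Sirt3 without 0 h replicate 1, 0 h replicate 2 or 48 h replicate 1.

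Other lists of nuclear genes for mitochondrial functions are given by their counts beside the same shares of all genes. In the citric acid cycle 2 of 17 genes fell (Mdh2, -0.80, adjusted p = 0.010, and Dld, -0.54, adjusted p = 0.0462, median of the list -0.23), and in protein import 3 of 20 (Timm8a1, -1.25, adjusted p = 0.000598, Timm13, -1.27, adjusted p = 0.00160, and Timm50, median of the list -0.19). Of 10 genes of the outer membrane and of carriers (median -0.05) 2 fell, among them Slc25a5, the ADP/ATP carrier that exchanges the product of complex V, with 1159, 760 and 846 CPM at 48 h and 1997, 1794 and 2059 CPM at 0 h (-1.08, adjusted p = 0.00527). Of 8 antioxidant genes (median -0.66) 4 fell, led by the peroxiredoxin Prdx5 with 443, 351 and 372 CPM at 48 h and 1528, 1613 and 1361 CPM at 0 h (-1.95, adjusted p = 7.34e-05) and including Sod2, the superoxide dismutase of the matrix (-0.99, adjusted p = 0.0352). No gene of these 4 lists was called higher between 48 h and 0 h. The call of Dld was lost whichever library was left out, that of Timm50 without any library but 0 h replicate 3, and that of Sod2 in 5 of 9 cases.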

How the data were processed

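RNA from F4/80+CD11b+ liver cells was sequenced in 9 libraries, 3 each at 0 h, 24 h and 48 h after PHx. Per the labels and the submitters' processing notes, the authors used CASAVA 1.8, HISAT2 2.0.5 and featureCounts 1.5.0-p3 on strand-marking (dUTP) libraries; the sources used here name no genome build or annotation and do not state whether strand was used in counting. The deposited values are whole numbers per gene, and were treated as estimated counts because multiples of 4 made up 40.9% to 47.6% of the values from 4 to 40, which plain read counts would not give; the test planned for counts was kept, and a fit on counts divided by 4 was an alternative. How reads shared by near-identical genes were counted is not known.

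Totals were 53297943 to 67951168 per library, and intervals from counts cover counting error only. Symbols were given to 52073 of 56691 IDs, and gene lengths, biotypes and overlaps were taken from GENCODE M21 (GRCm38). Genes with low counts were removed with filterByExpr (minimum count 10), leaving 20204, which were tested with the quasi-likelihood test of edgeR 4.0.16 (TMM factors, all 9 libraries in 1 fit, time as the only term, Benjamini-Hochberg adjustment over all genes, threshold 0.05) in R 4.3.3. The procedure was tested on simulated data. CPM are scaled by TMM factors. The ratio of mitochondrial to nuclear counts is a description without a test. Copies were searched with BLAST 2.17.0 (at least 99% identity over at least 90% of the copy), and promoters and motifs were read with Python 3.11.15 from RefSeq sequences.

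All mitochondrial members were named, and of the nuclear ones, per complex and comparison, the 2 called with the smallest p in each direction, the 2 most abundant, all alternative isoforms and any called against most others of its complex. Further members were named after their values were seen, to account for all that were called. Of other lists, called genes were named, up to 4 a list by p, or the most abundant where none was called. Uncalled genes named outside this rule were Adgre1, Tfam, Polrmt, Nrf1, Gabpa, Esrra, Ppargc1a and, beyond the most abundant, further complex II genes. The members and lists were chosen with earlier results of these data known. Alternatives were other scalings and filters, DESeq2 1.42.0, limma-voom (limma 3.58.1), a replicate block, a fold minimum, and leaving out each library, and the addition of the counts of near-identical nuclear copies was chosen after seeing the data. No columns of the authors' own comparisons were used. The values of 1 member are not reported here.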

Additional observations from a re-analysis of the deposited data

How the results depend on the processing

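Between 24 h and 0 h, no member was called under any alternative run. Between 48 h and 0 h, 9 to 12 mitochondrial members were higher under the alternatives that kept all libraries, and 6 to 13 when 1 library was left out. The 37 nuclear members lower became 10 when libraries were scaled by total counts alone, 15 with a log2 difference of at least 1, and 21 to 44 when 1 library was left out. Between 48 h and 24 h, 7 to 13 mitochondrial members were higher when 1 library was left out. The 36 nuclear members lower became 8 with total counts, 12 with a log2 difference of at least 1, and 19 to 42 when 1 library was left out. The single nuclear member higher, Atp5s, became 3 members with total counts, 2 with DESeq2, 2 with counts divided by 4, 0 with upper-quartile factors, 0 with limma-voom, 0 with only the libraries of both times, and 0 to 1 when 1 library was left out. The cause of these changes was not tested. The log2 ratio of mitochondrial to nuclear counts stayed within 1 pooled SD of its value under every alternative run, between 1.67 and 2.71 for 48 h against 0 h and between 1.85 and 2.89 for 48 h against 24 h.

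The replicate numbers share no stated mouse, litter or day, and same-numbered libraries did not deviate together (correlations between -0.02 and 0.07). With a replicate block, 9 and 11 mitochondrial members were higher at 48 h than at 0 h and 24 h, 35 nuclear members were lower in each comparison, and 0 nuclear members were higher at 48 h than at 24 h.

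Of the 2050 values of the 94 members recomputed for each 48 h comparison, 63 against 0 h (23 members) and 88 against 24 h (28 members) changed sign, none of them of a called member. For the members chosen by the rule for named genes, these were as follows. With total counts alone, Atp5a1 differed by 0.33 (48 h against 0 h) and 0.27 (48 h against 24 h), Cox7a2 by 0.14 and 0.22, and Ndufa4 by 0.082 and 0.31, while Cox6a1 differed by 0.079 against 0 h, Atp5g2 by 0.13 and Cox7b by 0.085 against 24 h. Atp5a1 against 0 h also differed by 0.0082 without the mitochondrial genes, 0.015 without a filter and 0.021 with only the libraries of both times, and by -0.17 to 0.13 when 1 library was left out. Leaving out 1 library gave -0.27 to 0.027 for Atp5a1 and -0.18 to 0.023 for Ndufa4 against 24 h, both highest without 48 h replicate 3. Cox6b2 against 24 h differed by -0.092 with upper-quartile factors and -0.094 with limma-voom, and by -0.27 to 0.38 when 1 library was left out. Cox7a2l against 0 h differed by -0.052 with upper-quartile factors and by -0.028 to 0.25 when 1 library was left out. The 3 libraries per time and the spread at 48 h limit the precision of all values.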
